A study of Homo sapiens with 12 samples.

Results

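The genes described here are 10 members of the BCL2 family, the proteins that decide whether the outer mitochondrial membrane is opened during apoptosis. They comprise the anti-apoptotic members BCL2, BCL2L1 (BCL-xL) and MCL1, the pore-forming effectors BAX and BAK1, and the BH3-only members BID, BBC3 (PUMA), PMAIP1 (NOXA), BCL2L11 (BIM) and BIK. They were chosen by name, and each symbol was matched to 1 Ensembl identifier. They make up 10 of the 58302 gene identifiers counted by RNA-seq and 10 of the 15826 genes with enough counts to be tested, and they carried 19 of the 14586 N6-methyladenosine (m6A) peaks called by MeRIP-seq.

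The cells were oral squamous cell carcinoma (OSCC) cells of the established human lines HSC3 and CAL33, and autophagy was induced with 100 nM rapamycin, an inhibitor of the mTOR kinase. RNA-seq comprised 2 libraries from rapamycin-treated cells and 2 from untreated control cells, numbered 1 and 2 in each group. MeRIP-seq, in which fragmented RNA is immunoprecipitated with an anti-m6A antibody and sequenced beside its input, comprised 8 libraries, 1 immunoprecipitated (IP) library and 1 input for each cell line with and without rapamycin. The methods give 3 days of rapamycin for the MeRIP-seq RNA and no duration for the RNA-seq cells. Each group comes from established lines, the labels name no genetic change in any library, and nothing states that the numbered libraries were separate cultures, so p-values measure only the spread between these libraries, which may be technical.

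Which cell line each RNA-seq library came from was uncertain. The labels put both rapamycin libraries in HSC3 and both control libraries in CAL33, and if they hold, treatment and cell line cannot be told apart in any RNA-seq comparison given here. In the MeRIP-seq labels, the libraries numbered 1 are HSC3 and those numbered 2 are CAL33, with or without rapamycin. The RNA-seq counts followed the numbers. The 357 genes with m6A peaks in the HSC3 lists only were lower in number 2 than in number 1 by a median log2 difference of -0.48 in the rapamycin libraries and -0.41 in the controls, and the 189 genes with peaks in the CAL33 lists only were higher by 0.43 and 0.44. Between rapamycin and control libraries of the same number, these medians lay between -0.04 and 0.04. Each member's change is therefore given from the fit with the number as a block and from the fit without it. P-values without the block rest on a spread that includes the difference between the numbers. Those with the block rest on the spread left after that difference is taken out. In both fits each gene's spread is drawn toward that of all genes. With the block most of it is borrowed in this way for the members, so their p-values do not measure each gene's own spread alone.

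In the mitochondrial pathway, anti-apoptotic proteins hold BAX and BAK1 in check. BH3-only proteins, which are induced or activated by stress, bind the anti-apoptotic proteins or activate the effectors directly, after which cytochrome c leaves the mitochondria and caspases are activated. Many members are short-lived and controlled at the mRNA level, and cancer cells often depend on BCL2, BCL-xL or MCL1 for survival. The pathway meets autophagy through Beclin 1, a BH3-bearing autophagy protein that BCL2 and BCL-xL bind.

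The sequences shown are the RefSeq promoter windows of BBC3, the member with the largest difference between the groups, and of BAX, an effector whose groups overlapped and which is shown for contrast. RefSeq held windows for 8 of the 10 members, all but MCL1 and BIK, on GRCh38.p14. Each printed run covers 250 bases upstream of an annotated transcript start, 5′ to 3′ on the gene's strand, at chr19:47232668-47232917 on the minus strand for BBC3 and chr19:48954625-48954874 on the plus strand for BAX. The BBC3 window precedes a start inside the gene, which reaches to position 47232860. Capitals mark the E-box CACGTG, the motif of basic helix-loop-helix factors, and the AP-1 motif TGAGTCA or its reverse complement TGACTCA. The E-box is its own reverse complement, so a single scan covers both strands.

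BBC3 promoter: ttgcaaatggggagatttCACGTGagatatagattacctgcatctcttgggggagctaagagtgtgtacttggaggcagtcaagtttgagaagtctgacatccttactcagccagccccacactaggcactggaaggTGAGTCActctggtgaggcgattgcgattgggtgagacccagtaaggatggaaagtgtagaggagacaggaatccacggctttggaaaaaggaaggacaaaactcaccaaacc

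BAX promoter: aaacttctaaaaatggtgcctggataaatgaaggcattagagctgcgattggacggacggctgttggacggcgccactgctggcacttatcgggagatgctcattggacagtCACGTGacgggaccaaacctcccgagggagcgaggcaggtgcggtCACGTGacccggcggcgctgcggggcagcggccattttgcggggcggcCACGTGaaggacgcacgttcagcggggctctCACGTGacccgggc

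The BBC3 window held 1 E-box, with its first base at position -232 from the start, and 1 AP-1 motif at position -113. The BAX window held 4 E-boxes and no AP-1 motif. Of the 8 members with a window, 3 held an E-box (BBC3, BAX and BID) and 1 held an AP-1 motif (BBC3). Some members have several windows, and by window 4 of 13 held an E-box and 1 of 13 an AP-1 motif. The BID windows with an E-box overlap and hold the same site, at position -106 from one start and -47 from another. That site is therefore counted more than once among the windows. Of 35116 RefSeq promoter windows of the same length, 6.34% held an E-box and 4.20% held an AP-1 motif. These matches describe the letters in the windows, and no binding was measured.

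Totals ranged from 18492273 to 23763098 counts per library, and mitochondrial genes took 5.71% to 7.94% of them. The labelled cell type was checked against its markers. Of 8 squamous epithelial markers, 6 were at or above 1 CPM (counts scaled to library size) in every library, with a summed level of 904 to 4764 CPM. Of 6 fibroblast markers, 3 had 0 counts in every library, and their sum was 8.75 to 48.0 CPM. Leukocyte markers summed to between 0.042 and 0.32 CPM, with 2 of 5 at 0 counts in every library, and the 3 endothelial markers to between 1.46 and 44.1 CPM. Number 2 libraries had higher squamous and endothelial sums and lower fibroblast sums than number 1 within each treatment. Within each number the squamous sum was lower with rapamycin (904 against 1082 CPM, and 3325 against 4764 CPM). The squamous markers did not all move with their sum. In number 2, KRT5, KRT14, KRT6A, EPCAM and SFN were lower with rapamycin. There KRT17 (2119 against 1346 CPM, scaled by TMM), CDH1 (221 against 180 CPM) and TP63 (353 against 332 CPM) were higher. In number 1 only KRT17 was higher (5.05 against 4.89 CPM), and KRT14 had 0 counts. The fibroblast sum was higher with rapamycin within each number (48.0 against 35.8 CPM, and 27.7 against 8.75 CPM). The part of these differences in the members' levels was not tested. In bulk RNA, a change in the number of cells that express a gene and a change in RNA per cell cannot be told apart.

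BBC3 was the only member called with rapamycin, and only with the number as a block. Without the block, the quasi-likelihood test of edgeR with adjustment by Benjamini-Hochberg called 0 of the 10 members and 0 of 15826 genes (0%) at an adjusted p under 0.05. At an unadjusted p under 0.05 it held 1 member (BBC3) and 446 genes in all, while DESeq2 without the block called 42 genes, none of them a member, and gave no adjusted p for BBC3 and BCL2. With the block, 1 of 10 members rose and 0 fell, against 8.15% of all tested genes called, 4.65% higher and 3.5% lower. Of the members, 5 had positive and 5 negative log2 fold changes in the blocked fit. Their median was 0.06, beside 0.05 over all tested genes.

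**Figure D1:**
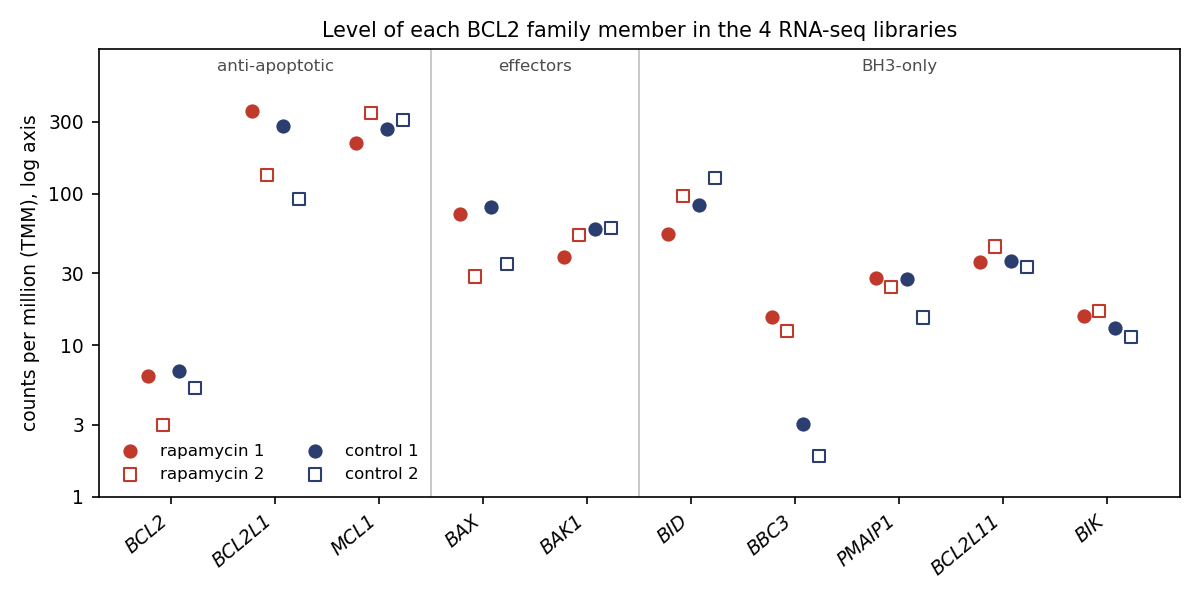
TMM-scaled CPM (log axis) of each of the 10 members in each of the 4 RNA-seq libraries, grouped by role, with rapamycin in red, control in blue, number 1 as filled circles and number 2 as open squares. The rapamycin libraries lie above both controls for BBC3 and BIK and below both for BAK1. BCL2, BCL2L1, MCL1, BAX, BID and PMAIP1 separate by number, and the share of all tested genes that do so was not counted.

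The anti-apoptotic members showed no call between rapamycin and control. BCL2 (ENSG00000171791, chr18:63123346-63320090), the founding member, had between 54 and 147 counts per library. Its level was 6.26 and 2.96 CPM in rapamycin libraries 1 and 2, against 6.79 and 5.20 CPM in controls 1 and 2. The rapamycin value lay below the control value within each number, by log2 differences of -0.12 and -0.81, but the groups overlapped. The blocked log2 fold change was -0.45 (95% interval -1.44 to 0.53, adjusted p = 0.61) and the unblocked one -0.38 (-2.36 to 1.60). RefSeq places LOC124904379 on the same stretch as BCL2, and reads of the former could not be told apart from those of BCL2.

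BCL2L1 (ENSG00000171552, chr20:31664452-31723963), which encodes BCL-xL, was 354 and 133 CPM with rapamycin, against 280 and 92.5 CPM in the controls. It was higher with rapamycin within each number, by ratios of 1.26 and 1.43, yet rapamycin 2 lay below control 1, because number 1 libraries held 2.67 times the level of number 2 with rapamycin and 3.03 times without. The rapamycin log2 fold change was 0.43 with the block (95% interval -0.09 to 0.95, adjusted p = 0.31) and 0.39 without it (95% interval -1.84 to 2.61). RefSeq places BCL2L1-AS1 and LOC124904883 on the same stretch, and how the counting treated strand is not given in the sources used here, so reads of these genes could not be told apart from those of BCL2L1.

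MCL1 (ENSG00000143384, chr1:150574558-150579610), a short-lived member that cells lose quickly when its synthesis stops, differed in opposite directions in the numbers. It was 217 CPM with rapamycin against 269 CPM in the control for number 1, and 340 CPM against 307 CPM for number 2. The groups overlapped. The blocked log2 fold change was -0.08 (95% interval -0.61 to 0.44, adjusted p = 0.88), the smallest in size among the 10 members in that fit, and -0.05 without the block (-1.04 to 0.94). None of the 4 enzymes of MCL1 turnover (HUWE1, FBXW7, BTRC and USP9X, which add ubiquitin to MCL1 or remove it) was called in either direction, and the median of the 4 was -0.04.

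The effectors lay below control within each number and did not pass the test. BAX (ENSG00000087088, chr19:48954875-48961798) was 73.8 and 28.5 CPM with rapamycin, against 81.3 and 34.6 CPM in the controls. The differences within the numbers, with ratios of 0.907 and 0.822, were small beside the difference between the numbers, where number 1 held 2.59 times the level of number 2 with rapamycin and 2.35 times without. The blocked log2 fold change was -0.21 (95% interval -0.77 to 0.35, adjusted p = 0.69), against -0.18 without the block (-2.16 to 1.79).

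BAK1 (ENSG00000030110, chr6:33572552-33580276), the effector that resides on mitochondria, was 38.5 and 53.3 CPM with rapamycin and 58.4 and 59.5 CPM in the controls. Both rapamycin libraries lay below both controls, as they did for 16.5% of all tested genes, and BAK1 was the only member of which this held. Most of the difference came from number 1, with a ratio of 0.659 against 0.896 in number 2. The blocked log2 fold change of -0.38 (95% interval -0.95 to 0.19) had an adjusted p of 0.43, and without the block it was -0.36 (-1.26 to 0.54).

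BBC3 (ENSG00000105327, chr19:47220824-47232860), whose product PUMA binds all anti-apoptotic members and is induced by stress-activated transcription factors, stood apart from the other BH3-only genes. It was 15.3 and 12.5 CPM in rapamycin libraries 1 and 2, against 3.05 and 1.86 CPM in controls 1 and 2. The reads behind these levels were 291 and 227 with rapamycin and 66 and 44 in the controls. Both rapamycin libraries lay above both controls, with a mean of 13.9 ± 2.02 CPM (SD, n = 2) against 2.45 ± 0.841 CPM (SD, n = 2). The ratio was 5.02 within number 1 and 6.70 within number 2.

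The log2 fold change of BBC3 was 2.53 with the block (standard error 0.45, 95% interval 1.60 to 3.45, adjusted p = 0.00157 by the quasi-likelihood test of edgeR), at rank 60 of the 15826 genes by p. Without the block it was 2.50 (standard error 0.60, 95% interval 0.83 to 4.17) with an adjusted p of 0.9997. The size was thus the same in both fits, whereas the call was made only where the spread between the numbers was taken out. RefSeq places MIR3190 and MIR3191 within BBC3, and reads of their precursors would be counted in the same place. DDIT3, whose product acts on BH3-only genes, is given with the wider lists.

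BIK (ENSG00000100290, chr22:43110750-43129712), a BH3-only member of the endoplasmic reticulum, was the other member whose rapamycin libraries both lay above the controls, as 2 of 10 members and 15% of all tested genes did. It was 15.5 and 17.0 CPM with rapamycin, against 13.1 and 11.3 CPM in the controls. The difference was far smaller than that of BBC3, with a blocked log2 fold change of 0.41 (95% interval -0.33 to 1.16) and an adjusted p of 0.52. Without the block it was also 0.41 (-0.73 to 1.55).

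BID (ENSG00000015475, chr22:17734138-17774665), which caspase-8 cleaves to link death receptors with mitochondria, had the smallest p among the members not called in the blocked fit, while in the unblocked fit that of BAK1 was smaller. Its level was 54.2 and 96.9 CPM with rapamycin, against 84.5 and 127 CPM in the controls, so that the groups overlapped although rapamycin was lower within each number. The blocked log2 fold change was -0.52 (95% interval -1.04 to 0.01, adjusted p = 0.22), and without the block it was -0.49 (-1.74 to 0.76). RefSeq places MIR3198-1 within BID.

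PMAIP1 (ENSG00000141682, chr18:59899996-59904305), whose product NOXA binds MCL1, was 27.9 and 24.4 CPM with rapamycin and 27.5 and 15.3 CPM in the controls. Control 1 lay between the rapamycin libraries, and the difference came from number 2, with a ratio of 1.60 against 1.01 in number 1. BCL2L11 (ENSG00000153094, chr2:111120914-111168445), whose product BIM binds all anti-apoptotic members, was 35.4 and 44.9 CPM with rapamycin, against 36.0 and 32.9 CPM in the controls. Rapamycin 1 lay between the controls, and the log2 difference was -0.02 in number 1 and 0.45 in number 2. The blocked log2 fold change was 0.35 for PMAIP1 (95% interval -0.31 to 1.01, adjusted p = 0.55) and 0.21 for BCL2L11 (95% interval -0.39 to 0.81, adjusted p = 0.71). Without the block these were 0.29 (-0.94 to 1.52) and 0.22 (-0.66 to 1.10). The adjusted p without the block was 0.9997 for each of the 10 members.

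**Figure D2:**
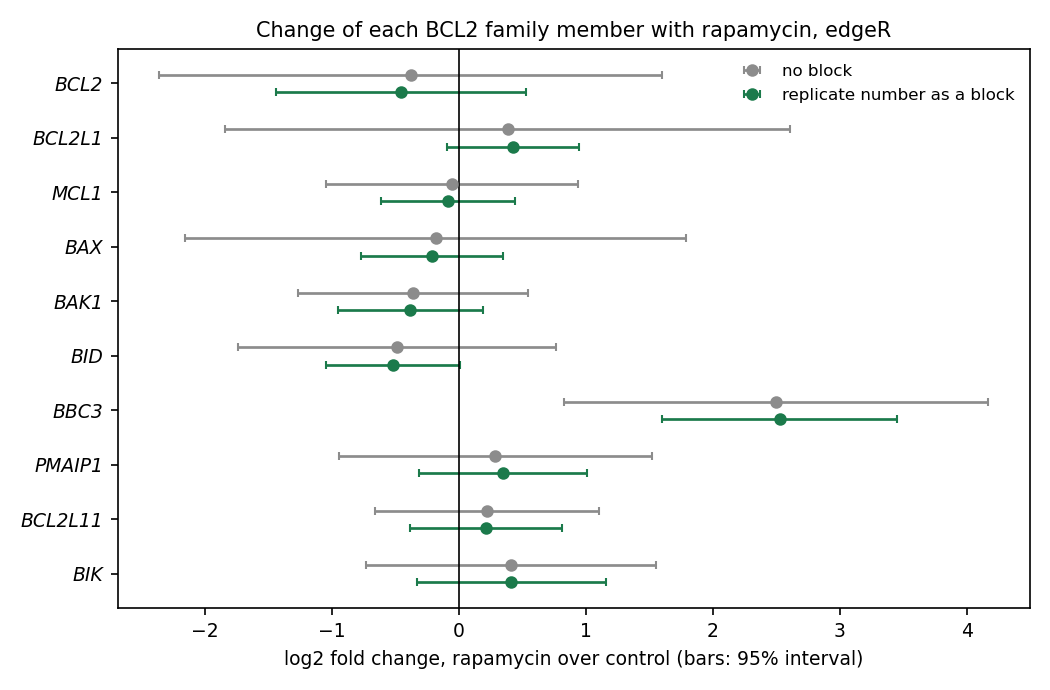
Log2 fold change of each member, rapamycin over control, with its 95% interval (bars) from edgeR without a block (grey) and with the replicate number as a block (green). The point of each member hardly moves between the fits while most intervals narrow, and with the block only the interval of BBC3, from 1.60 to 3.45, leaves out 0.

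More members were called between the numbers than between the treatments, as was so over all tested genes (37.3% against 8.15% in the blocked fit). In the blocked fit, number 2 differed from number 1 in 3 of 10 members, against 37.3% of all tested genes. Where at least 10 counts in every sample were required, 2 members were called, without BID, against 30.5% of the genes tested there. BCL2L1 and BAX were lower in number 2, by log2 fold changes of -1.51 (standard error 0.26, adjusted p = 3.25e-05) and -1.30 (standard error 0.28, adjusted p = 0.000426). BID was higher in number 2, with a log2 fold change of 0.71 (standard error 0.26, adjusted p = 0.0295). For BBC3 it was -0.49 (95% interval -1.38 to 0.40, adjusted p = 0.41), smaller in size than its difference between the treatments. If the numbers mark the lines as in the MeRIP-seq labels, these are differences between HSC3 and CAL33, each given by 1 library per treatment.

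**Figure D3:**
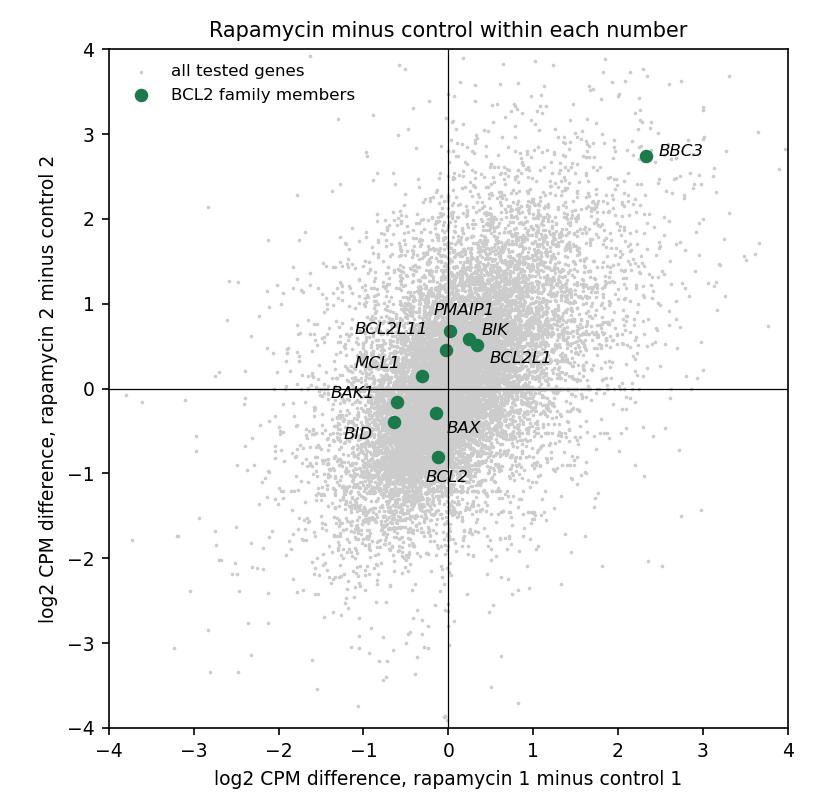
Log2 CPM difference between rapamycin and control within number 1 (x axis) and within number 2 (y axis) for the tested genes (grey) and the 10 members (green), with 19 genes beyond 4 on either axis not drawn. Grey points use a prior count of 2 and green points use none. BBC3 lies at 2.33 and 2.74, away from the other members, which lie within 1 of 0 on both axes, and MCL1 and BCL2L11 have opposite signs on the axes.

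Peaks of m6A were listed on 6 of the 10 members, and none of the 4 lists held a peak on BAX, BID, BCL2L11 or BIK. Each list comes from 1 IP library and 1 input, so no value has a replicate, no test between treatments was made, and the depth behind a peak is unknown. A peak's fold enrichment is the authors' ratio of IP to input signal. Members with a peak numbered 4 of 10 in HSC3 control cells, against 17.6% of all tested genes. They numbered 4 of 10 in HSC3 with rapamycin (17.5% of tested genes), and in CAL33 3 without rapamycin (16.1%) and 2 with it (14.2%). Peaks are listed more often on genes with more reads. Among tested genes within 1.5-fold of the level of MCL1 in the library of the same treatment and number, 32.0% had a peak in HSC3 control cells, against 11.4% of those near the level of BCL2.

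The regions of the member peaks were counted in each list. HSC3 control cells had 4 member peaks, all annotated as 3′ UTR, and HSC3 rapamycin cells had 8, of which 4 were in coding sequence (CDS) and 4 in 3′ UTRs. In CAL33 cells, 1 of the 3 control peaks and all 4 rapamycin peaks were annotated as CDS. Over all peaks the share in CDS was 41.3% and 41.4% in HSC3 without and with rapamycin, and 42.6% and 41.0% in CAL33. The members' counts come from few genes, since MCL1 and BCL2L1 held all 9 CDS peaks. Of the 12 member peaks with rapamycin, 2 overlapped a control peak of the same line by at least 1 base, as did 29.1% of all 7031 rapamycin peaks.

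MCL1 was the only member with a peak in every list. Without rapamycin its peaks were annotated as 3′ UTR, at chr1:150577065-150577305 in HSC3 cells with a fold enrichment of 5.59 and at chr1:150576766-150577424 in CAL33 cells with a fold enrichment of 321. These overlapped each other, and they stood at percentile 8.75 and 93.4 of their own lists. With rapamycin neither line listed a peak there.

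In HSC3 rapamycin cells MCL1 had CDS peaks at chr1:150579199-150579379 and chr1:150578900-150579109, with fold enrichments of 40.6 and 19.8, and a 3′ UTR peak near the end of the gene at chr1:150575030-150575180 with 11.8. In CAL33 rapamycin cells its peaks were in CDS at chr1:150579020-150579199 and chr1:150578296-150578476, with fold enrichments of 4.47 and 19.6. Both lines thus listed MCL1 in CDS only with rapamycin. Of 594 genes with a peak in all 4 lists, 16 (2.69%) had no CDS peak in both control lists and a CDS peak in both rapamycin lists, and 10 (1.68%) had the reverse.

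**Figure D4:**
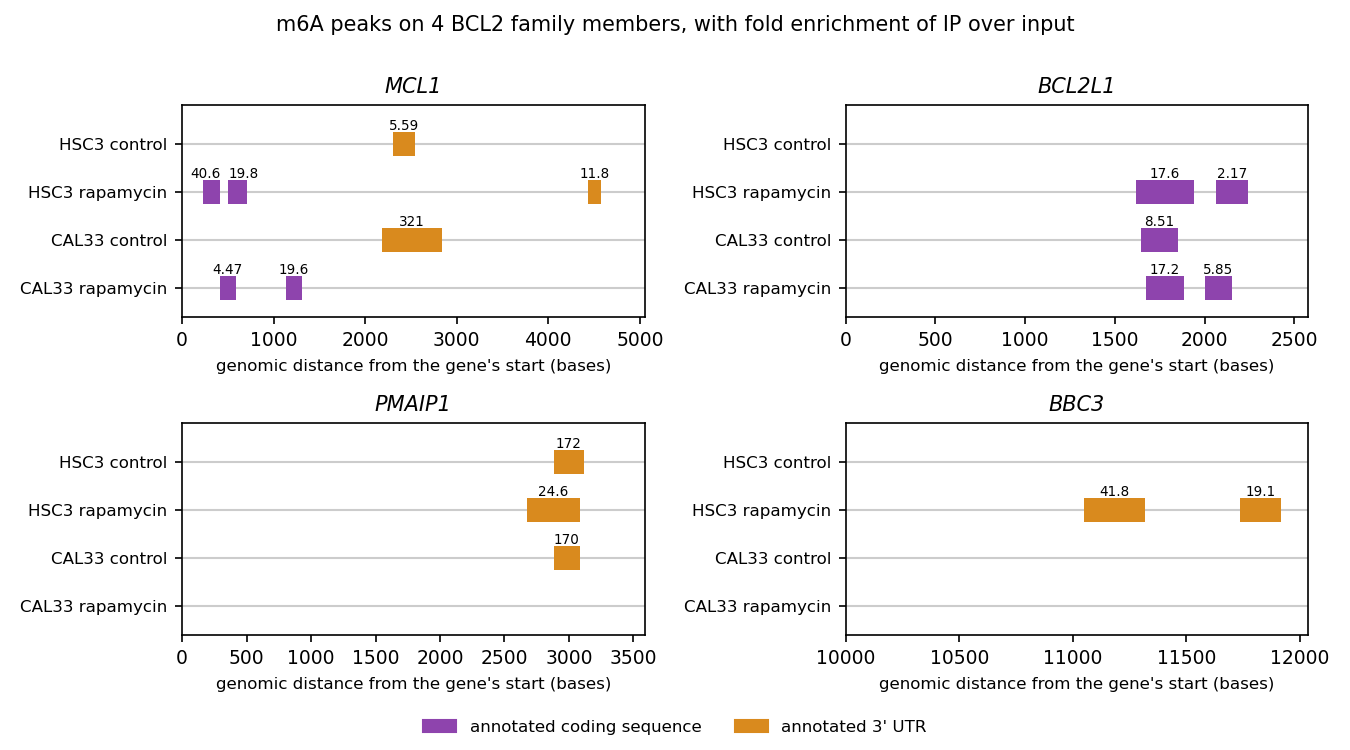
Position of the m6A peaks of MCL1, BCL2L1, PMAIP1 and BBC3 in the 4 lists, as genomic distance from the gene's RefSeq start (bases), with CDS in purple, 3′ UTR in orange and the fold enrichment over each peak; the axis of BBC3 begins at 10000 and that of BCL2L1 ends before the gene does. MCL1 peaks lie near the middle of the gene in both control lists, and with rapamycin its CDS peaks lie nearer the start and 1 HSC3 peak near the end, while PMAIP1 has no peak in CAL33 rapamycin cells.

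BCL2L1 was listed in CDS in 3 of the lists and not in HSC3 control cells. Its mRNA stood at 280 CPM in the control library of the same number. Of tested genes within 1.5-fold of that level, 32.0% had a peak in the HSC3 control list. A stretch around chr20:31722109-31722318 was shared by the lists that had it. The fold enrichment in this stretch was 17.6 in HSC3 with rapamycin, and in CAL33 it was 8.51 without and 17.2 with rapamycin. A second CDS peak was listed with rapamycin in both lines, with fold enrichments of 2.17 in HSC3 and 5.85 in CAL33, and the former stood at percentile 0.835 of its list.

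PMAIP1 had its highest fold enrichments without rapamycin. Its 3′ UTR peak around chr18:59902876-59903085 had fold enrichments of 172 in HSC3 control cells and 170 in CAL33 control cells. With rapamycin it was 24.6 in HSC3, where the peak was wider (418 bases against 240), and no peak was listed in CAL33, while the mRNA of PMAIP1 in the number 2 library was 24.4 CPM with rapamycin against 15.3 CPM without. The log2 ratio of the HSC3 fold enrichments was -2.81, and -2.79 after each value was divided by the median of its list. A fold enrichment depends on the scaling and the depth of its pair, neither of which is stated, so the size of this difference has no error that could be given.

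BBC3 was listed with m6A in HSC3 rapamycin cells only, with 3′ UTR peaks at chr19:47221542-47221812 and chr19:47220942-47221122 and fold enrichments of 41.8 and 19.1. Their log10 false discovery rates were -116 and -1.61, the latter the weakest among the member peaks. The BBC3 mRNA was also higher with rapamycin in number 1, the number of HSC3 in the MeRIP-seq labels. Shares with a peak were taken among tested genes within 1.5-fold of the BBC3 level in the library of the same treatment and number. They were 7.79% in the HSC3 control list and 17.9% in the HSC3 rapamycin list. In the CAL33 lists the shares were 4.68% and 13.2%, and no BBC3 peak was listed there. The part of the mRNA level in these peaks was not tested.

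BCL2 and BAK1 had a peak in HSC3 control cells and in no other list. The BCL2 peak, at chr18:63128255-63128435, had a fold enrichment of 196 and that of BAK1, at chr6:33572906-33573115, had 123, both annotated as 3′ UTR. They stood at percentile 87.9 and 78.3 of their list.

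The wider lists held 7 further calls in the blocked fit, 4 higher and 3 lower, among 45 tested genes (15.6%, beside 8.15% of all tested genes), and none without the block. Of the other 11 BCL2 family genes, 7 were tested and 1 rose, HRK, a BH3-only gene best known from neurons. HRK was 1.84 and 12.3 CPM with rapamycin, against 0.369 and 4.94 CPM in the controls, and although it was higher with rapamycin in each number the groups overlapped (log2 fold change 1.69, standard error 0.53, adjusted p = 0.0475). It was also among the genes that differed between the numbers, and the reads were few, with 8 in control 1.

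The 3 BH3-bearing genes of autophagy and mitophagy split. BNIP3, a mitochondrial mitophagy receptor, fell from 56.2 and 72.9 CPM in the controls to 27.0 and 32.6 CPM with rapamycin (log2 fold change -1.11, standard error 0.28, adjusted p = 0.0154). Its homologue BNIP3L (NIX) rose from 66.6 and 35.6 CPM to 101 and 80.0 CPM (log2 fold change 0.88, standard error 0.27, adjusted p = 0.0418). BECN1, which encodes Beclin 1, had a log2 fold change of 0.30 with an adjusted p of 0.50. In these genes the groups did not overlap. The same held for 15% of all tested genes with rapamycin higher and 16.5% with rapamycin lower.

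Among the 12 genes of the apoptosome, caspases and their inhibitors, 0 rose, 2 fell and 10 did not pass the test, with a median of -0.29. CYCS, which encodes cytochrome c, was 114 and 115 CPM with rapamycin, against 193 and 273 CPM in the controls (ratios of 0.593 and 0.420 within the numbers, adjusted p = 0.0181). BIRC5, which encodes survivin, an inhibitor of apoptosis family protein that acts mainly in mitosis, was 71.2 and 48.1 CPM with rapamycin, against 187 and 93.1 CPM in the controls (log2 fold change -1.18, standard error 0.26, adjusted p = 0.0068). Neither gene had overlapping groups, and both rapamycin libraries lay below both controls in 16.5% of all tested genes. No gene of the 11 in the death receptor pathway was called.

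Of the 8 transcription factors and stress-response genes, most of them known to act on BH3-only genes, 2 rose and 0 fell, with a median of 0.64. CDKN1A, which encodes the cell cycle inhibitor p21, was 357 and 49.8 CPM with rapamycin, against 142 and 14.8 CPM in the controls, and its groups overlapped because the numbers differed (log2 fold change 1.54, standard error 0.26, adjusted p = 0.0013). DDIT3, which encodes the stress factor CHOP, was 48.2 and 33.6 CPM with rapamycin, against 18.9 and 21.2 CPM in the controls (log2 fold change 1.01, standard error 0.31, adjusted p = 0.0433). MDM2, which encodes a ubiquitin ligase, had a log2 fold change of -0.44 with an adjusted p of 0.34. The p-values of these lists come from the blocked quasi-likelihood fit of edgeR and are adjusted over all 15826 genes.

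**Figure D5:**
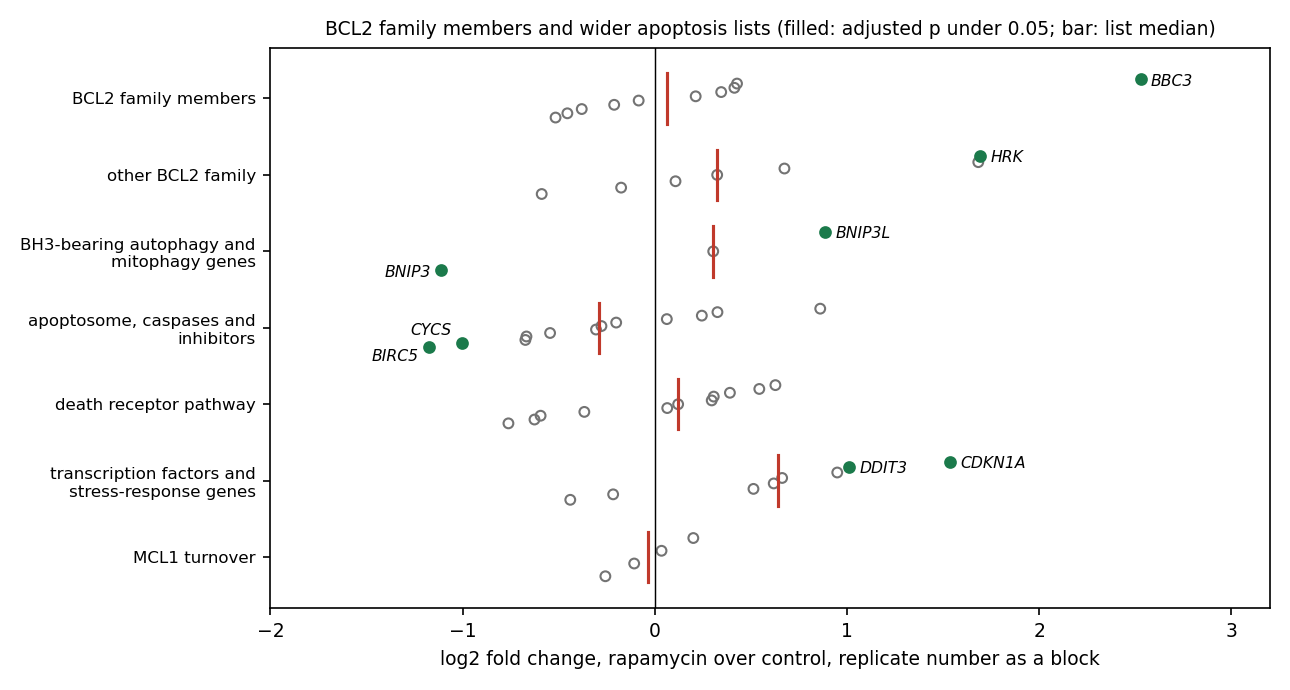
Log2 fold change of each tested gene, rapamycin over control with the replicate number as a block, for the 10 members and the 6 wider lists, with filled points for an adjusted p under 0.05 and a red bar at each list's median. BBC3 at 2.53 is the largest value drawn, CYCS, BIRC5 and BNIP3 are the filled points below 0, and the death receptor and MCL1 turnover lists have no filled point.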

How the data were processed

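RNA-seq was analysed in 4 libraries and MeRIP-seq in the 4 peak lists made from 8 libraries. The RNA-seq table that the authors deposited holds raw counts of reads for each Ensembl identifier, not normalized. For MeRIP-seq the authors deposited peaks called on each IP and input pair, with a fold enrichment ratio and, as score values, the log10 p-value and log10 false discovery rate of each peak. The submitters' processing notes name hg38, cutadapt 2.5, HISAT2 2.1.0, featureCounts 1.6.3 and HOMER 4.10.4 without roles, while the count table is named for HTSeq. The library kit keeps strand, and the strand setting of the counting and the peak caller's settings are not given in the sources used here. Symbols matched 57532 of 58302 identifiers (98.7%).

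The 10 members, the wider lists and the promoter motifs were chosen with earlier results of these data known. The count tests were run with edgeR 4.0.16 under R 4.3.3 (filterByExpr, TMM, quasi-likelihood test with robust dispersion, Benjamini-Hochberg adjustment over all 15826 tested genes at 0.05). CPM is scaled by TMM, except in the marker sums, which are scaled by total counts. Within-number log2 differences of the members are log2 ratios of CPM without a prior count. Those drawn for all tested genes use a prior count of 2, and the medians over genes listed in 1 cell line add 0.1 CPM. The main comparison had no block, and the alternatives were the replicate number as a block, DESeq2 1.42.0, upper-quartile normalization, other filters and each library left out. The pairing rests on the MeRIP-seq labels. Across genes the difference between the numbers was correlated between the rapamycin and the control libraries at r = 0.90, and log2 CPM correlated at 0.97 and 0.96 between same-numbered libraries and at 0.76 to 0.81 between the others, over 15826 genes that are not independent replicates. From each wider list, up to 3 genes with the smallest p among those called with the block are named; BECN1 and MDM2 were named after their values were seen. Peaks were matched by Ensembl identifier with Python 3.11.15, positions are counted from 1, and an overlap needs at least 1 base. Of the wider lists, 1 gene is not reported here. Gene positions are those of RefSeq on GRCh38.p14. No genome was used, so the sequence under the m6A peaks was not examined, and transcript lengths were not used, so levels are not compared between genes.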

Additional observations from a re-analysis of the deposited data

Results flagged for a closer look

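In MCL1 and BCL2L11 the numbered pairs moved in opposite directions, and the difference between the pairs was not tested, because each number has 1 library per treatment. For MCL1 the log2 difference between rapamycin and control was -0.31 in number 1 and 0.15 in number 2. For BCL2L11 it was -0.024 in number 1 and 0.45 in number 2. Opposite pairs were found in 2 of the 10 members and in 5320 of the 15826 tested genes.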

How the results depend on the processing

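The replicate block changed the calls most. It raised the calls over all genes from 0 to 1290, and those among the members from 0 to 1 (BBC3). With the block, DESeq2 called 818 genes, upper-quartile normalization 1165 and a minimum of 10 counts in every sample 1236, each with 1 member, again BBC3, at a log2 fold change of 2.55, 2.60 and 2.55 and an adjusted p of 0.0010, 0.0020 and 0.0013. Of the blocked calls, 736 were higher and 554 lower with TMM, against 805 and 360 with upper-quartile normalization. Without the block, DESeq2 called 42 genes and 0 members, and every edgeR alternative called 0 genes, also with each library left out in turn (0 to 0 genes and 0 to 0 members). The block changed no other call among the members. The log2 fold change of BBC3 was positive under every alternative, from 2.18 without control replicate 2 to 2.83 without control replicate 1, with an adjusted p between 0.896 and 0.9998 in the edgeR alternatives without the block. Of the 3 members called between the numbers, BID was lost (adjusted p = 0.0502) with at least 10 counts in every sample.

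Of 140 pairs of a member and an alternative, 129 kept the direction and 11 reversed, none of them a called value. MCL1 was 0.017 with upper-quartile normalization and 0.15 within number 2, and BCL2L11 was -0.024 within number 1. The others came from leaving out a library in the fit without a block, which left the numbers unequal between the groups. MCL1 was 0.21 without rapamycin replicate 1 and 0.038 without control replicate 2 (range -0.43 to 0.21), and BCL2L1 was -0.52 and -0.21 without the same libraries (range -0.52 to 1.34). BAX was 0.33 without rapamycin replicate 2 and 0.50 without control replicate 1 (range -1.05 to 0.50), BCL2 was 0.042 without rapamycin replicate 2 (range -1.04 to 0.042), and PMAIP1 was -0.081 without control replicate 2 (range -0.081 to 0.71). Leaving out rapamycin replicate 1 also moved the median of all genes by -0.13, and the cause of these reversals was not tested. Peaks on the members numbered 19 in all, 18 where a fold enrichment of 4 or more was required, and 19 with a false discovery rate of 0.05 or better or matched by symbol.

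With 2 libraries a group, leaving out a library under the block left no residual degrees of freedom and was not run. The block lowered the common dispersion from 0.64 to 0.061. BBC3 rests on 44 and 66 reads in the controls, and the read depth of the peaks is unknown.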

Other observations

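Peaks of m6A were also listed on genes around the BCL2 family, named here after their values were seen. BNIP3 had a peak in HSC3 control cells only and BNIP3L in HSC3 rapamycin cells only, and BECN1 had none. Of the 4 enzymes of MCL1 turnover, 4 had a peak in HSC3 without rapamycin and 1 with it, while 2 had a peak in CAL33 without rapamycin and 1 with it, and FBXW7, the substrate receptor of a ubiquitin ligase that acts on MCL1, was the gene listed each time. BMF and CDKN1A had a peak in CAL33 rapamycin cells only. None of the 12 genes of the apoptosome, caspases and their inhibitors had a peak in HSC3 rapamycin cells, against 2 in HSC3 control cells and 3 in CAL33 control cells. Over all tested genes the share with a peak was 17.6% and 17.5% in HSC3 without and with rapamycin, and 16.1% and 14.2% in CAL33. The share at the levels of these genes was not counted. No replicate stands behind these counts and no test was made.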
